A study of Mus musculus with 32 samples.

Results

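The genes described here are 46 genes of collagens, laminins, other extracellular matrix proteins and the enzymes that modify and crosslink collagen, followed through 32 Affymetrix mouse whole-genome arrays of NMuMG cells and of their hnRNP E1 knockdown derivative, E1KD. A gene was represented by 1 probe set, the one of highest mean over the 24 arrays that were not immunoprecipitations, among the probe sets annotated to that gene symbol alone. Of the 46 genes, 42 had such a probe set and 29 had one that passed a filter on low signal, out of 12589 genes in the table that did. Fbn1, Efemp2 and Spp1 had no probe set in the annotation used, and both probe sets of Loxl2 carried a second gene symbol, so these 4 genes were not measured here.

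NMuMG is an established line of normal mouse mammary gland epithelial cells that undergoes epithelial to mesenchymal transition (EMT) when exposed to TGFβ, and E1KD cells are NMuMG cells in which hnRNP E1, the RNA binding protein encoded by Pcbp1, is knocked down by a short hairpin RNA. Whether the E1KD line is 1 clone is not given in the sources used here. Total, polysomal and monosomal RNA was taken from TGFβ-treated E1KD, untreated E1KD, TGFβ-treated NMuMG and untreated NMuMG cells, with 2 arrays for each of these 12 conditions. TGFβ treatment was TGFβ2 at 5 ng/ml for 24 h. The remaining 8 arrays were α-hnRNP E1 and control IgG immunoprecipitates of cytosolic RNA from TGFβ-treated and untreated NMuMG cells, also 2 of each. The labels call the 2 arrays of a condition biological replicates without stating whether the cultures were separate, and the p-values cover no more than the spread between these samples, which may in part be technical.

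Values are log2 signals and differences are log2 differences, so that a difference of 1 is a 2-fold change. A call means an adjusted p under 0.05 in limma over all 25432 probe sets that passed the filter. Genes said to have arrays without overlap were picked by their call, so the lack of overlap adds no support to it. The share of all probe sets without overlap is not given here. Array medians ranged between 5.36 and 5.70. The 2 monosomal arrays of untreated NMuMG cells stood apart from the other fractionated samples: their upper quartiles were 7.95 and 8.0, against 7.37 to 7.68 in the other 14 monosomal and polysomal arrays and 8.03 to 8.18 in the 8 total RNA arrays. Their profile also correlated more closely with total RNA of the same cells (r = 0.932 across probe sets) than the monosomal profile of TGFβ-treated NMuMG cells did (0.756), or those of untreated (0.882) and TGFβ-treated (0.755) E1KD cells. Pcbp1 was between 8.44 and 10.86 in the 12 E1KD arrays, against 13.08 to 13.30 in the 12 NMuMG arrays, with no overlap. In total RNA of E1KD cells it was at 9.33 and 9.55 with TGFβ and at 10.79 and 10.86 without. Its difference of E1KD minus NMuMG was −3.70 with TGFβ and −2.275 without (SE 0.10 each). The depth of the knockdown thus differed by treatment, and its part in the TGFβ changes of E1KD cells was not tested. Of 7 epithelial markers 6 passed the filter. In the 4 total RNA conditions the keratins Krt8 and Krt18 averaged at least 14.14, Cdh1 11.83 to 12.46 and Krt19 11.26 to 12.31. Epcam averaged 5.98 to 6.10 and Cldn3 6.0 to 6.16 there, and Cldn7 did not pass (4.80 to 5.03). Of 5 fibroblast markers Pdgfra, Pdgfrb, Thy1 and Fap did not pass the filter, and Vim averaged 13.79 to 14.10. For the α-hnRNP E1 immunoprecipitates the labels conflict. The titles put array numbers 13 and 14 once each in either treatment group, whereas the descriptions name TGFβ only for both arrays numbered 14. The grouping as titled was used first and the grouping by array number beside it.

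Epithelial cells rest on a basement membrane, a sheet of type IV collagen and laminin heterotrimers linked by nidogen and perlecan. During EMT, cells lose contact with that sheet and deposit an interstitial matrix of fibronectin, fibrillar collagens and matricellular proteins instead, and TGFβ is a classical inducer of many of these genes. Newly made collagen chains are hydroxylated on proline and lysine in the endoplasmic reticulum, folded with the help of a collagen-specific chaperone, secreted, and crosslinked outside the cell by lysyl oxidases. In bulk samples such as these, fewer cells making a transcript and less transcript per cell cannot be told apart.

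The 29 genes that passed the filter were spread unevenly over these roles. All 5 measured hydroxylase and chaperone genes passed (P4ha1, P4ha2, Plod1, Plod2 and Serpinh1), as did 10 of 11 genes of basement membrane proteins (Col4a1, Col4a2, Col18a1, Lama3, Lama5, Lamb1, Lamb3, Lamc1, Nid1 and Hspg2) and all 4 other collagens (Col6a1, Col6a2, Col7a1 and Col12a1). Of the 5 fibrillar collagen genes, Col1a2 and Col5a1 passed. Fn1, Fbln1 and Fbln2 passed, as did the matricellular genes Thbs1 and Sparc, the proteoglycan gene Bgn, the latent TGFβ binding protein gene Ltbp1 and the lysyl oxidase gene Loxl1. The 13 that did not pass were Col1a1, Col3a1, Col5a2, Col4a5, Efemp1, Thbs2, Tnc, Postn, Tgfbi, Dcn, Vcan, Ltbp2 and Lox. Several of the absent or dim genes, among them Col1a1, Col3a1, Postn, Dcn and Lox, are defining products of fibroblasts.

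The first comparison asked how TGFβ changed the matrix genes of NMuMG cells at the level of total RNA. Of the 29 genes, 10 were higher after TGFβ and 3 were lower. Over all probe sets tested, 3.0% were higher and 2.43% lower. The median difference of the 29 genes was 0.12, against 0.005 for all probe sets.

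Fibronectin and fibulin 2, glycoproteins of the interstitial and provisional matrix, had the greatest differences. Fbln2 was at 10.64 and 10.79 in TGFβ-treated NMuMG cells and at 8.69 and 8.87 in untreated cells, a difference of 1.94 (SE 0.14, adjusted p = 4.77e-07). Fn1 was at 11.49 on both TGFβ-treated arrays and at 9.61 and 9.67 on the untreated arrays, a difference of 1.85 (SE 0.11, adjusted p = 4.52e-08). For both genes the treated arrays lay far above the untreated ones, with a gap much wider than that between the arrays of 1 group. Fbln1, the related fibulin, lay between 6.28 and 6.49 on all 4 arrays and did not pass the test (−0.045, SE 0.168).

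Thbs1 and Ltbp1 encode proteins that handle TGFβ itself: thrombospondin 1 can release latent TGFβ, and latent TGFβ binding protein 1 tethers it to the matrix. Thbs1 measured 10.95 and 11.05 in TGFβ-treated cells and 9.27 and 9.38 in untreated cells (difference 1.68, SE 0.31, adjusted p = 0.00253). Ltbp1 measured 10.35 and 10.34 with TGFβ and 8.95 and 8.96 without (1.39, SE 0.15, adjusted p = 1.81e-05). In both genes the treated arrays lay above the untreated ones without overlap. Sparc, a collagen binding matricellular protein, rose less, at 11.17 and 11.33 in treated cells and 10.81 and 10.92 in untreated cells (0.39, SE 0.11, adjusted p = 0.0479).

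Genes of the basement membrane went both ways, with 4 of 10 higher and 2 lower. Lamb3, the β chain of an epithelial laminin that anchors hemidesmosomes, was at 10.97 and 11.09 with TGFβ and at 9.91 and 9.95 without (1.10, SE 0.14, adjusted p = 8.42e-05). Col18a1, whose product carries endostatin at its end, was at 10.96 and 11.15 with TGFβ and 10.39 and 10.42 without (0.65, SE 0.10, adjusted p = 0.000642). The paired type IV collagen genes rose by similar amounts: Col4a1 was at 9.72 and 9.70 in treated cells and 9.14 and 9.08 in untreated cells (0.60, SE 0.11, adjusted p = 0.00352). Col4a2 was at 8.23 and 8.49 in treated cells and 7.73 and 7.91 in untreated cells (0.54, SE 0.15, adjusted p = 0.0482). These 2 genes lie head to head on chromosome 8 in GRCm38.p6, where the annotated extent of Col4a1, on the minus strand, begins at 11312889 and that of Col4a2, on the plus strand, at 11312805, so that the annotated genes overlap at their starts. The 2 that fell encode chains of the major epithelial laminins. Lama5 was at 9.82 and 9.87 in treated cells and 10.45 and 10.55 in untreated cells (−0.66, SE 0.15, adjusted p = 0.0126), and Lamc1 was at 8.23 and 8.36 in treated cells and 9.08 and 8.98 in untreated cells (−0.74, SE 0.19, adjusted p = 0.033). Lamb1, which pairs with both, had a difference of 0.45 (SE 0.21) that did not pass, although another of its probe sets was called higher (0.84, SE 0.13, adjusted p = 0.000657). Lama3 (−0.155), Nid1 (−0.145) and Hspg2 (−0.05) did not pass either.

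Col7a1, the anchoring fibril collagen of the basement membrane zone, was at 8.59 and 8.62 in treated cells and 7.69 and 7.81 in untreated cells (0.86, SE 0.13, adjusted p = 0.000704). With the probe sets used it was called alone among the 4 other collagens and 2 fibrillar collagens, but a second probe set of Col12a1 was called higher too (1.11, SE 0.25, adjusted p = 0.013). Plod2, the lysyl hydroxylase that acts on collagen telopeptides, fell to 9.96 and 9.98 in treated cells, against 10.72 and 10.70 in untreated cells (−0.74, SE 0.14, adjusted p = 0.00298). None of the other 4 hydroxylase and chaperone genes was called, with differences between −0.44 for P4ha1 and 0.41 for Serpinh1. Bgn (0.065) and Loxl1 (0.06) were not called. With 1 array left out 8 to 9 members were called: calls for Lamc1 (adjusted p between 0.122 and 0.247), Lama5 (0.0637 to 0.133), Sparc (0.0937 to 0.404) and Col4a2 (0.0744 to 0.427) ended whichever of the 4 arrays was left out, and that for Col4a1 ended without the second untreated array (adjusted p = 0.0517). When the 8 immunoprecipitation arrays shared the fit, 6 members were called, and Thbs1, Lamb3, Col7a1, Col18a1 and Lamc1 were among those that were not.

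**Figure D1:**
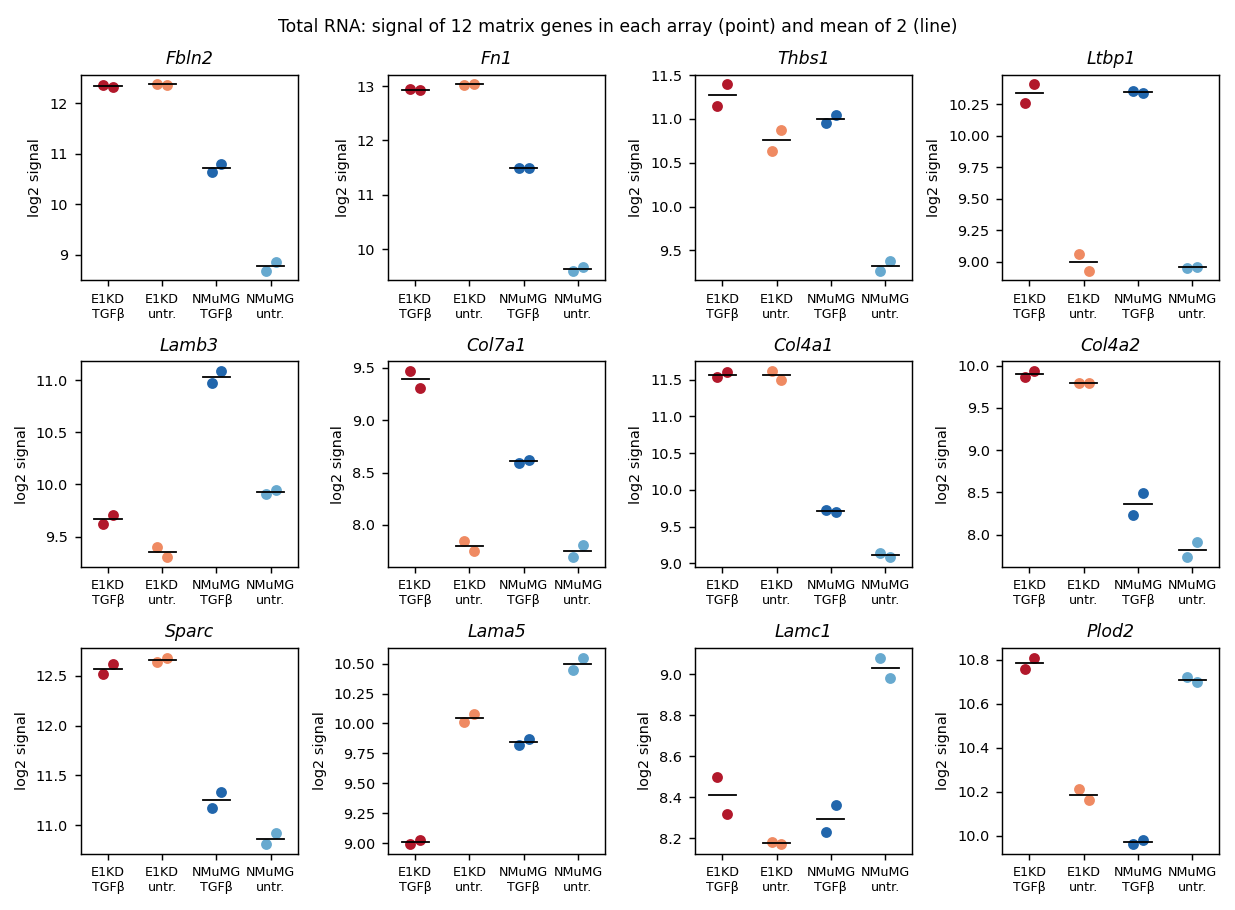
Total RNA signal of 12 matrix genes on each array. The vertical axis is the log2 signal, with its own range in each panel; the horizontal axis gives the 4 conditions; each point is 1 array and each line the mean of 2 arrays. Fbln2 and Fn1 are at like levels in both E1KD conditions and lowest in untreated NMuMG cells, whereas Ltbp1 and Col7a1 are higher with TGFβ in both lines.

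To show what the promoters of genes that responded most strongly look like, the 250 bases before 1 RefSeq transcript start of 4 genes called higher after TGFβ are printed in their own orientation, with the 5-base SMAD binding motif CAGAC or its reverse complement GTCTG in capitals. SMAD proteins carry the TGFβ signal to DNA, and CAGAC is the short element that Smad3 and Smad4 bind. Fn1 and Thbs1 had no entry in the promoter table used. The start is the most upstream one listed there, which begins the annotated gene for Col7a1 alone: the annotated extent begins at 91212460 for Fbln2 and 193294353 for Lamb3, before the printed window, and at 75005480 for Ltbp1, within it. Positions are GRCm38.p6, plus strand, and sequences are RefSeq's.
Fbln2, chr6:91212514-91212763: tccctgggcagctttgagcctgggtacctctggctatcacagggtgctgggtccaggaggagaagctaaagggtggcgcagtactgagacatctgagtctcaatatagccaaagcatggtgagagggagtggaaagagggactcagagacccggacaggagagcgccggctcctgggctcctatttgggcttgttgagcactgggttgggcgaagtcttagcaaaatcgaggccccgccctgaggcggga
Lamb3, chr1:193301744-193301993: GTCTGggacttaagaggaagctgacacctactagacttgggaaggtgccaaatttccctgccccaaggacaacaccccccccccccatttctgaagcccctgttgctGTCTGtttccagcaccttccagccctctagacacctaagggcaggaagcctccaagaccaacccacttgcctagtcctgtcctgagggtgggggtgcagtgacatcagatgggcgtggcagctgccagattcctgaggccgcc
Ltbp1, chr17:75005279-75005528: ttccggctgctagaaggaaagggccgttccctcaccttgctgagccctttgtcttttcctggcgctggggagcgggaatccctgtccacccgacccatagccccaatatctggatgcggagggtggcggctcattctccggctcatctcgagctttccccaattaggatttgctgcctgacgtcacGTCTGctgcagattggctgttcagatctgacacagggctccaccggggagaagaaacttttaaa
Col7a1, chr9:108953336-108953585: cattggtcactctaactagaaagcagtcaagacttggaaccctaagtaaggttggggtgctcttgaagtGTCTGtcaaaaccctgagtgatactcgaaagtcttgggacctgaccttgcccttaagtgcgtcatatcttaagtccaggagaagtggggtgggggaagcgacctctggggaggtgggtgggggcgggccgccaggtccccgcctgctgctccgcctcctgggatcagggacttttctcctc
Lamb3 held the motif at positions −250 and −143 from the transcript start used, Ltbp1 at −64 and Col7a1 at −181, and no match lay in the window of Fbln2, the gene with the highest difference. Of the 34 listed genes with a window, 22 (64.7%) held at least 1 match on either strand, as did 6 of the 8 genes with a window that were higher after TGFβ in NMuMG cells (75%). Over all 27025 genes with a window the share was 45.8%. The AP-1 motif TGAGTCA, searched on both strands, was in the windows of 1 of the 34 genes (2.94%) and of 5.16% of all genes. A match of this length is a description of the letters only.

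The same comparison in E1KD cells gave 7 genes higher and 3 lower of 29, where 11.4% of all probe sets were higher and 9.75% lower. The medians were 0.055 for the 29 genes and −0.015 for all probe sets. Only Col7a1 and Ltbp1 were called higher in both lines, and only Lama5 lower in both, with no joint share of all probe sets given here.

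Col7a1 was at 9.47 and 9.31 in TGFβ-treated E1KD cells and at 7.85 and 7.75 in untreated E1KD cells (1.59, SE 0.13, adjusted p = 4.53e-07), a greater difference than in NMuMG cells. Ltbp1 was at 10.26 and 10.41 with TGFβ and 9.06 and 8.93 without (1.34, SE 0.15, adjusted p = 8.40e-06), within 0.05 of its difference in NMuMG cells. The other genes that rose in E1KD cells had not been called in NMuMG cells, or had been called lower there. Lamb1 was at 10.03 and 9.90 with TGFβ and 8.87 and 8.98 without (1.04, SE 0.21, adjusted p = 0.00192). Col5a1, a fibrillar collagen that nucleates type I fibrils, was at 7.38 and 7.53 with TGFβ and at 6.47 on both untreated arrays (0.98, SE 0.17, adjusted p = 0.000629). Serpinh1, the collagen chaperone Hsp47, was at 8.31 and 8.25 with TGFβ and 7.46 and 7.33 without (0.89, SE 0.14, adjusted p = 0.000272). In each of these genes both treated arrays lay above both untreated ones. Col6a1 was at 6.12 and 5.92 with TGFβ and 5.55 and 5.24 without (0.63, SE 0.19, adjusted p = 0.0267), close to the filter's limit of 5.52. Plod2, which fell in NMuMG cells, was at 10.76 and 10.81 in treated E1KD cells and 10.21 and 10.16 in untreated E1KD cells (0.60, SE 0.14, adjusted p = 0.00482).

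Lama5 fell to 8.99 and 9.03 in treated E1KD cells, against 10.01 and 10.08 in untreated E1KD cells (−1.04, SE 0.15, adjusted p = 0.000104). Both catalytic subunits of prolyl 4-hydroxylase fell: P4ha1 to 9.01 and 9.03 with TGFβ, against 9.80 and 9.93 without (−0.84, SE 0.15, adjusted p = 0.000732). P4ha2 fell to 8.09 and 7.93 with TGFβ, against 8.89 and 8.81 without (−0.84, SE 0.20, adjusted p = 0.00627). The 3 genes thus fell without overlap of the arrays. Fn1 and Fbln2, the 2 genes with the greatest differences in NMuMG cells, had differences of −0.10 (95% interval −0.34 to 0.14) and −0.04 (−0.35 to 0.27) in E1KD cells, where their untreated levels were above those of TGFβ-treated NMuMG cells. Leaving out 1 array ended the call for Col6a1 in 3 of 4 cases (adjusted p up to 0.232) and for P4ha2 in 2 of 4 (up to 0.061). Other probe sets of Col12a1 (0.99, SE 0.25, adjusted p = 0.00961) and Col18a1 (0.50, SE 0.11, adjusted p = 0.00348) were called higher in E1KD cells where the ones used were not.

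**Figure D2:**
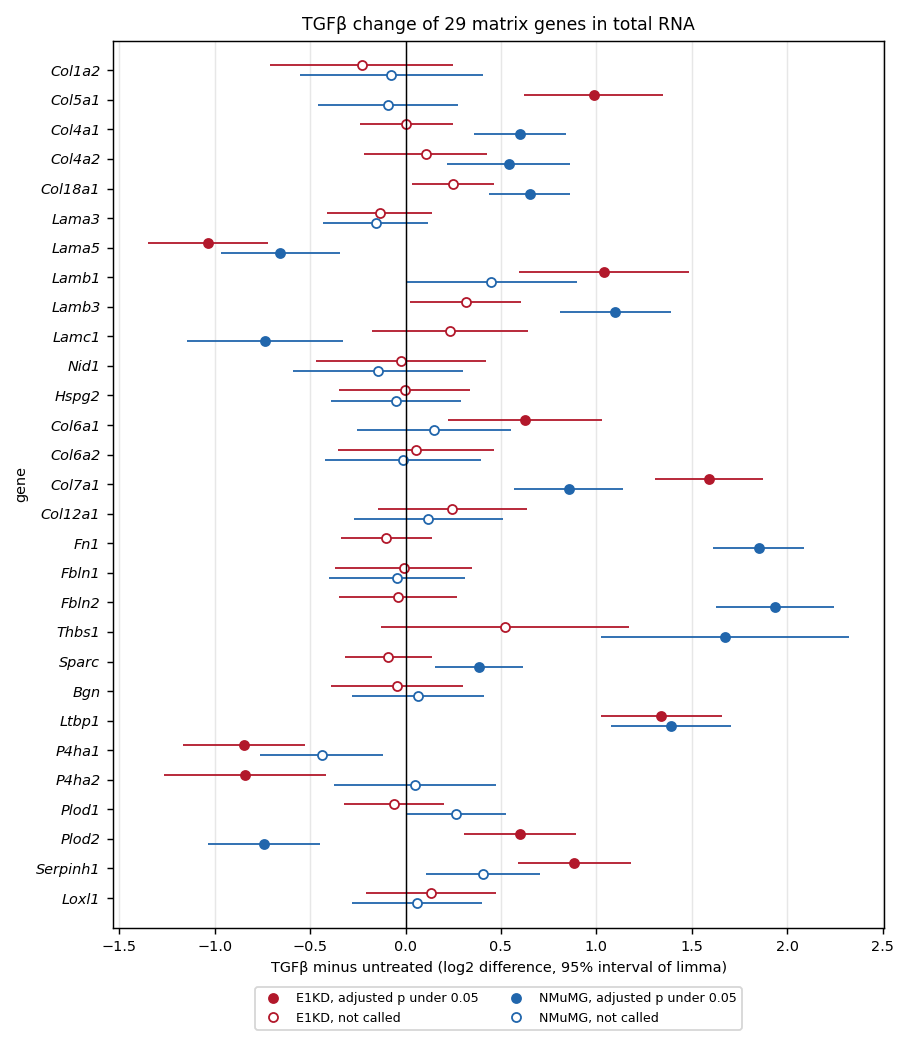
TGFβ change of the 29 tested matrix genes in total RNA of E1KD (red) and NMuMG (blue) cells. The horizontal axis is the log2 difference of TGFβ-treated minus untreated cells, points are differences of means of 2 arrays, bars are 95% intervals from limma, and filled points were called. Fn1, Fbln2 and Thbs1 lie to the right in NMuMG cells, Col5a1 and Serpinh1 are called in E1KD cells alone, and Plod2 lies on opposite sides.

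A call in one line and none in the other does not show that the lines differ, so the difference of the 2 TGFβ changes, E1KD minus NMuMG, was tested itself. It was called for 8 of 29 genes, 4 positive and 4 negative, where 5.76% of all probe sets were positive and 5.69% negative. The positive ones were Plod2 (1.34, SE 0.20, adjusted p = 0.000243), Col5a1 (1.08, SE 0.24, adjusted p = 0.0083), Lamc1 (0.97, SE 0.27, adjusted p = 0.0291) and Col7a1 (0.74, SE 0.19, adjusted p = 0.0183). The negative ones were Fbln2 (−1.98, SE 0.21, adjusted p = 9.07e-06), Fn1 (−1.95, SE 0.16, adjusted p = 8.09e-07), Lamb3 (−0.79, SE 0.19, adjusted p = 0.0141) and Col4a1 (−0.60, SE 0.16, adjusted p = 0.0242). For Serpinh1, Lamb1, Col6a1, P4ha1 and P4ha2, which were called in E1KD cells alone, and for Thbs1, Sparc, Col4a2 and Col18a1, which were called in NMuMG cells alone, the difference between the lines did not pass the test. Other probe sets of Thbs1 (−1.23, SE 0.20, adjusted p = 0.000814), Hspg2 (−0.74, SE 0.22, adjusted p = 0.0439) and Serpinh1 (0.85, SE 0.24, adjusted p = 0.0295) were called. Of the 8 called differences, those of Plod2, Col5a1, Fbln2 and Fn1 held whichever array was left out, that of Lamc1 was lost with each of the 8 arrays (adjusted p between 0.052 and 0.112), and those of Col4a1, Col7a1 and Lamb3 with 7, 5 and 4 of them. The split was 2 positive and 6 negative with quantile normalization, where Col5a1 (0.82, adjusted p = 0.0814) and Lamc1 (0.97, adjusted p = 0.0596) were lost, and 2 and 7 with arrays centred on Actb and Gapdh, where Lamc1 (0.79, adjusted p = 0.0589) and Col7a1 (0.56, adjusted p = 0.0748) were. With all 32 arrays in 1 fit 2 members were called, and Fn1 (adjusted p = 0.064) and Fbln2 (adjusted p = 0.062) were not.

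The E1KD line was then compared with the parental line. The samples include no NMuMG line with a control hairpin. Loss of hnRNP E1 therefore cannot be told apart from other differences between the lines. In untreated cells, 12 of the 29 genes were higher in E1KD than in NMuMG cells and 5 were lower, where 15.8% of all probe sets were higher and 13.5% lower. The median difference was 0.22 for the 29 genes and −0.02 for all probe sets. This comparison uses the same untreated NMuMG arrays as the TGFβ comparison in NMuMG cells, so the values of the 2 comparisons are not independent.

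Fbln2 was at 12.38 and 12.36 in untreated E1KD cells and 8.69 and 8.87 in untreated NMuMG cells, a difference of 3.59 or 12-fold (SE 0.14, adjusted p = 2.54e-11). Fn1 was at 13.02 and 13.04 in E1KD cells and 9.61 and 9.67 in NMuMG cells, a difference of 3.39 or 10.5-fold (SE 0.11, adjusted p = 2.23e-12). The E1KD arrays of both genes lay far above the NMuMG arrays. Sparc was at 12.64 and 12.68 in E1KD cells and 10.81 and 10.92 in NMuMG cells (1.80, SE 0.11, adjusted p = 2.46e-09), and Thbs1 at 10.64 and 10.87 in E1KD cells and 9.27 and 9.38 in NMuMG cells (1.43, SE 0.31, adjusted p = 0.00183). Ltbp1, which rose with TGFβ in both lines, did not differ detectably between untreated lines (0.04, 95% interval −0.28 to 0.36).

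Among the genes of the basement membrane, the type IV collagens and the laminins went opposite ways. Col4a1 was at 11.62 and 11.50 in untreated E1KD cells and 9.14 and 9.08 in untreated NMuMG cells (2.45, SE 0.11, adjusted p = 1.18e-10). Col4a2 was at 9.80 on both E1KD arrays and at 7.73 and 7.91 on the NMuMG arrays (1.98, SE 0.15, adjusted p = 4.25e-08). All 4 called laminin genes were lower in E1KD cells. Lamb1 was at 8.87 and 8.98 in E1KD cells and 10.06 and 10.21 in NMuMG cells (−1.21, SE 0.21, adjusted p = 0.000312), and Lamc1 at 8.18 and 8.17 in E1KD cells and 9.08 and 8.98 in NMuMG cells (−0.86, SE 0.19, adjusted p = 0.00267). Lamb3 was at 9.40 and 9.30 in E1KD cells and 9.91 and 9.95 in NMuMG cells (−0.58, SE 0.14, adjusted p = 0.00389), and Lama5 at 10.01 and 10.08 in E1KD cells and 10.45 and 10.55 in NMuMG cells (−0.46, SE 0.15, adjusted p = 0.028). The call for Lama5 ended with each of the 4 arrays left out (adjusted p between 0.0717 and 0.156).

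All but 1 of the 5 collagen processing genes were higher in untreated E1KD cells. P4ha2 was at 8.89 and 8.81 in E1KD cells and 7.25 and 7.45 in NMuMG cells (1.5, SE 0.20, adjusted p = 2.52e-05), Serpinh1 at 7.46 and 7.33 in E1KD cells and 6.28 and 6.17 in NMuMG cells (1.17, SE 0.14, adjusted p = 7.50e-06), and Plod1 at 8.30 and 8.45 in E1KD cells and 7.27 and 7.15 in NMuMG cells (1.17, SE 0.12, adjusted p = 1.92e-06). P4ha1 was higher by 0.69 (SE 0.15, adjusted p = 0.00226). Plod2 was the exception, at 10.21 and 10.16 in E1KD cells and 10.72 and 10.70 in NMuMG cells (−0.53, SE 0.14, adjusted p = 0.00805), a call that ended with 2 of the 4 arrays left out (adjusted p = 0.0511 and 0.0578). The collagen genes Col6a1 and Col5a1 completed the list, Col6a1 at 1.05 (SE 0.19, adjusted p = 0.000466) and Col5a1 at 0.58 (SE 0.17, adjusted p = 0.0174), a call that ended with each of the 4 arrays left out (0.0639 to 0.0962).

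In TGFβ-treated cells, 13 genes were higher in E1KD than in NMuMG cells and 3 were lower, where 14.7% of all probe sets were higher and 12.5% lower. The median was 0.275 for the 29 genes and −0.03 for all probe sets. A set of 10 genes was called higher both with and without TGFβ (Col4a1, Col4a2, Col5a1, Col6a1, Fbln2, Fn1, P4ha2, Plod1, Serpinh1 and Sparc) and 3 were called lower in both (Lama5, Lamb1 and Lamb3). The shares of all probe sets called in both comparisons are not given here. Fn1 was at 12.94 and 12.92 in TGFβ-treated E1KD cells and at 11.49 on both TGFβ-treated NMuMG arrays (1.44, SE 0.11, adjusted p = 7.16e-08), and Fbln2 at 12.35 and 12.31 in E1KD cells and 10.64 and 10.79 in NMuMG cells (1.62, SE 0.14, adjusted p = 3.91e-07). The E1KD and NMuMG arrays thus stayed apart for both genes, by less than in untreated cells. Col4a1 was at 11.53 and 11.60 in E1KD cells and 9.72 and 9.70 in NMuMG cells (1.86, SE 0.11, adjusted p = 4.36e-09). Col5a1 was at 7.38 and 7.53 in E1KD cells and 5.88 and 5.72 in NMuMG cells (1.66, SE 0.17, adjusted p = 2.02e-06), and Serpinh1 at 8.31 and 8.25 in E1KD cells and 6.69 and 6.57 in NMuMG cells (1.65, SE 0.14, adjusted p = 1.99e-07). Col4a2 (1.54), Col6a1 (1.52) and Sparc (1.32) followed, and Plod1, Plod2, Col7a1, P4ha2 and Col12a1 were higher by 0.60 to 0.84. Plod2 was higher in TGFβ-treated E1KD cells, at 10.76 and 10.81 in E1KD cells and 9.96 and 9.98 in NMuMG cells (0.82, SE 0.14, adjusted p = 0.00029). Lamb3 was at 9.62 and 9.71 in E1KD cells and 10.97 and 11.09 in NMuMG cells (−1.36, SE 0.14, adjusted p = 1.33e-06), Lama5 differed by −0.83 and Lamb1 by −0.62. With 1 array left out 13 members were called each time: the calls for Lamb1 (adjusted p between 0.0916 and 0.184), P4ha2 (0.0717 to 0.182) and Col12a1 (0.0757 to 0.118) ended with each of the 4 arrays left out. Thbs1 and Ltbp1, at 0.28 (95% interval −0.37 to 0.93) and −0.01 (−0.33 to 0.31), were not called.

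The 10 genes called in neither comparison of the lines were Bgn, Col18a1, Col1a2, Col6a2, Fbln1, Hspg2, Lama3, Loxl1, Ltbp1 and Nid1, with the probe sets used. Other probe sets were called higher in E1KD cells for Hspg2 (0.92 with and 1.65 without TGFβ, SE 0.16 each) and Col18a1 (0.90 with and 0.75 without TGFβ, SE 0.11 each), and without TGFβ for Loxl1 (0.79, SE 0.24) and Col12a1 (2.77, SE 0.25), whose probe set used was not called there. For P4ha1 another probe set was called higher with TGFβ (0.71, SE 0.21). The markers Acta2 and Cd68, listed for other cell types, had higher levels in E1KD cells in total RNA. Acta2 averaged 7.47 in untreated E1KD cells and 4.92 in untreated NMuMG cells, and Cd68 8.31 in E1KD cells and 6.58 in NMuMG cells. With TGFβ, Acta2 averaged 6.65 in E1KD cells and 5.48 in NMuMG cells, and Cd68 7.08 in E1KD cells and 5.97 in NMuMG cells. Without TGFβ, the basal keratins Krt14 and Krt17 and the basal factor Trp63 were between 4.00 and 4.30 in both lines. There the basal keratin Krt5 was at 5.42 in E1KD cells and 5.64 in NMuMG cells. The leukocyte marker Ptprc was at 3.72 in E1KD cells and 3.81 in NMuMG cells and the fibroblast list, of which 4 of 5 did not pass the filter, had a median of 4.62 in E1KD cells and 4.75 in NMuMG cells, with Vim at 14.10 in E1KD cells and 13.79 in NMuMG cells. Whether the cultures held cells of other types was not tested, nor was any link of these marker levels to the matrix genes' differences.

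**Figure D3:**
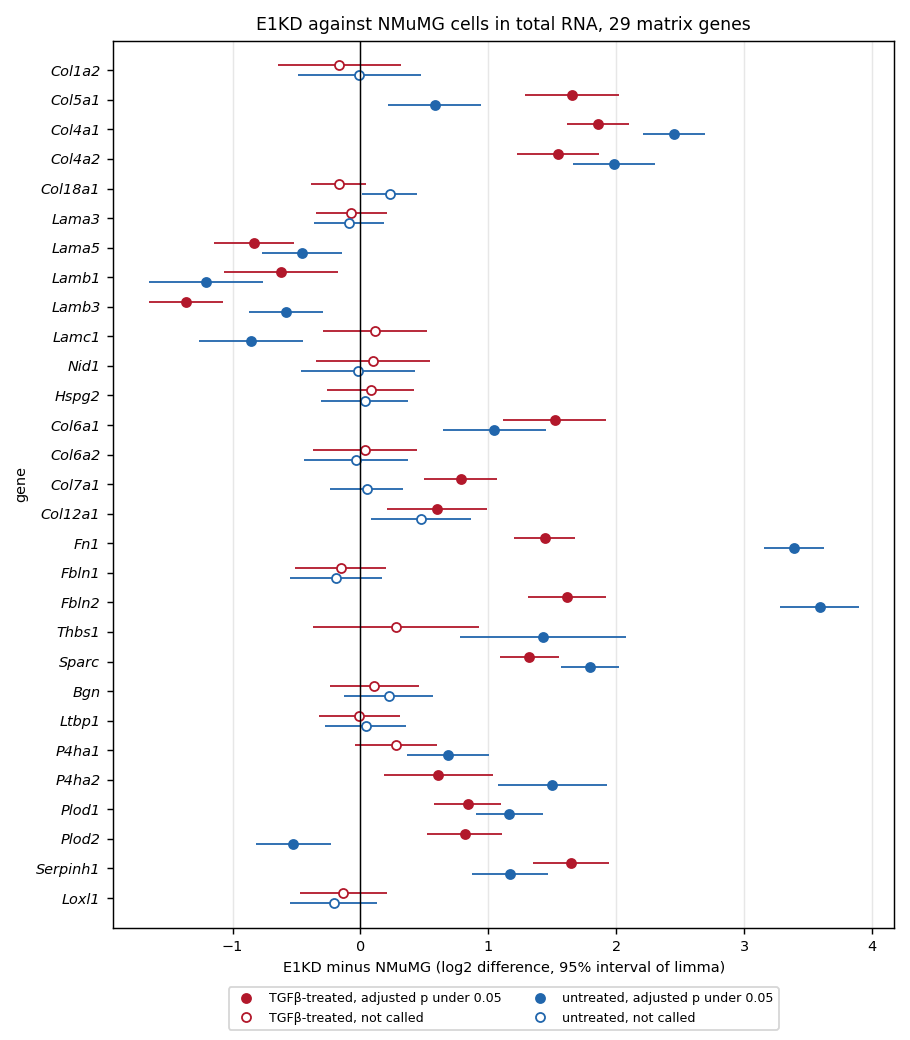
Difference of E1KD minus NMuMG cells in total RNA for the 29 tested matrix genes, with TGFβ (red) and without (blue). The horizontal axis is the log2 difference, bars are 95% intervals from limma and filled points were called. Fbln2 and Fn1 are furthest right in untreated cells, at 3.59 and 3.39, and the laminin genes Lama5, Lamb1 and Lamb3 lie left of 0 in both treatments.

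Genes that did not pass the filter were fitted once without it, to account for all members. In total RNA, Postn and Efemp1 were the 2 of these 13 that were called in any comparison. Periostin (Postn) was at 6.61 and 6.63 in untreated E1KD cells and 4.61 and 4.66 in untreated NMuMG cells (1.99, SE 0.25, adjusted p = 1.55e-05), and fell to 5.16 and 5.30 in TGFβ-treated E1KD cells (−1.39, SE 0.25, adjusted p = 0.00119). It is a gene that TGFβ commonly induces in fibroblasts. Efemp1, which encodes fibulin 3, was at 5.19 and 5.11 in untreated E1KD cells and 3.69 and 3.60 in untreated NMuMG cells (1.5, SE 0.13, adjusted p = 1.03e-07), and at 4.37 and 4.14 in TGFβ-treated E1KD cells (−0.90, SE 0.13, adjusted p = 0.000121). Col1a1 was between 4.39 and 4.76 and Col3a1 between 4.03 and 4.42 on all 8 arrays, and in total RNA none of Col5a2, Col4a5, Thbs2, Tnc, Tgfbi, Dcn, Vcan, Ltbp2 and Lox was above 4.92. In the pools, Lox was at 6.80 and 7.30 and Tnc at 6.30 and 6.18 on the monosomal arrays of untreated NMuMG cells, where both were called lower in the polysomal pool (−1.25 and −0.53). There Col5a2 (1.02, SE 0.18), Dcn (0.98, SE 0.24), Col3a1 (0.59, SE 0.17) and Tgfbi (0.59, SE 0.22) were called higher in the polysomal pool. These genes were dim, and the median of the 13 genes below the filter also differed between these pools. It was 5.02 and 5.08 on the polysomal arrays of untreated NMuMG cells and 4.77 and 4.58 on the monosomal arrays. The part of this offset in the calls was not tested. Col5a2 was called lower in the polysomal pool in TGFβ-treated E1KD (−0.76), untreated E1KD (−0.73) and TGFβ-treated NMuMG cells (−0.82), as was Ltbp2 in TGFβ-treated E1KD cells (−0.96). Efemp1 was called higher in it in TGFβ-treated (0.64) and untreated (0.38) E1KD cells, and Vcan in TGFβ-treated NMuMG cells (0.54).

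The second part of the study separated cytosolic RNA on a sucrose gradient into a polysomal pool, engaged by several ribosomes, and a monosomal pool, to follow translation. A higher signal in the polysomal than in the monosomal pool of the same cells is taken as more active translation. Each array was normalized with the others, so a polysomal minus monosomal difference is relative to the typical transcript and not an absolute share of the transcript. Low signals were also offset in untreated NMuMG cells. The lower quartiles were 4.46 and 4.52 on their polysomal arrays and 4.25 and 4.19 on their monosomal arrays. The part of this offset in the differences of dim genes such as Col1a2 and Lama3 was not tested.

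In TGFβ-treated E1KD cells, 8 of the 29 genes were higher in the polysomal pool and 14 were lower, against a background over all probe sets of 34.0% higher and 26.6% lower. In untreated E1KD cells the counts were 3 and 9 (16.8% and 18.2% of all probe sets), in TGFβ-treated NMuMG cells 5 and 7 (27.6% and 22.1%), and in untreated NMuMG cells 9 and 17 (29.3% and 41.9%). The median of the 29 genes was −0.33 in TGFβ-treated E1KD (0.035 for all probe sets), −0.29 in untreated E1KD (−0.015), −0.13 in TGFβ-treated NMuMG (0.015) and −0.555 in untreated NMuMG cells (−0.135), each below that of all probe sets. Another scaling changed the split of 2 of these comparisons: centring on Actb and Gapdh gave 9 higher and 6 lower in TGFβ-treated NMuMG cells, and quantile normalization gave 11 and 12 in untreated NMuMG cells.

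A set of 5 genes was called higher in the polysomal pool in TGFβ-treated cells of both lines: Fn1, Ltbp1, P4ha1, Plod2 and Thbs1. The share of all probe sets called higher there in both lines is not given here, so the size of this set has no background. Fn1 was at 11.78 and 11.83 in the polysomal and 10.28 and 10.22 in the monosomal pool of TGFβ-treated E1KD cells (1.56, SE 0.11, adjusted p = 7.93e-09), and at 9.77 on both arrays of the polysomal and 8.36 and 8.75 in the monosomal pool of NMuMG cells with TGFβ (1.22, SE 0.11, adjusted p = 1.43e-07). Plod2 was at 8.18 and 8.51 in the polysomal and 6.70 and 7.0 in the monosomal pool of TGFβ-treated E1KD cells (1.5, SE 0.14, adjusted p = 1.21e-07), and at 7.16 and 7.36 in the polysomal and 5.65 and 5.91 in the monosomal pool of NMuMG cells with TGFβ (1.48, SE 0.14, adjusted p = 1.68e-07). The pools of these genes did not overlap in any of the 4 cases. Thbs1 differed by 1.47 in TGFβ-treated E1KD and 1.62 in TGFβ-treated NMuMG cells (SE 0.31 each), Ltbp1 by 1.44 and 0.85 (SE 0.15 each) and P4ha1 by 0.97 and 0.93 (SE 0.15 each). The call for Ltbp1 in TGFβ-treated NMuMG cells ended when limma was fitted to the arrays of that comparison alone (adjusted p = 0.0567). In untreated E1KD cells Fn1 (1.27), Ltbp1 (0.89) and Plod2 (0.49) were called higher in the polysomal pool and no other member was. The call for Plod2 there ended with 2 of the 4 arrays left out. It also ended in limma with the mean of the kept probe sets of Plod2 (0.25, adjusted p = 0.179). In TGFβ-treated E1KD cells the further genes higher in the polysomal pool were Lamb1 (1.00), Lamc1 (0.76) and Col4a1 (0.58), and the call for Lamc1 ended with 1 of the 4 arrays left out. Lamc1 was also not called when limma was fitted to the arrays of that comparison alone (adjusted p = 0.0675).

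The 14 genes lower in the polysomal pool of TGFβ-treated E1KD cells were both fibrillar collagens, 3 of the 4 other collagens, 4 of 10 basement membrane genes, 3 of the 5 hydroxylase and chaperone genes, Fbln1 and Loxl1, whereas 3 basement membrane genes and 2 hydroxylase genes were higher. Col4a2, Col18a1, Col7a1 and Serpinh1 were called lower in the polysomal pool in all 4 conditions, with differences between −1.88 and −0.715. No share of all probe sets called lower in all 4 is given here. Col7a1 was at 8.49 and 8.30 in the polysomal and 10.22 and 10.33 in the monosomal pool of TGFβ-treated E1KD cells (−1.88, SE 0.13, adjusted p = 7.46e-09), and at 8.60 and 8.57 in the polysomal and 9.73 and 10.11 in the monosomal pool of NMuMG cells with TGFβ (−1.34, SE 0.13, adjusted p = 3.94e-07). Col18a1 was at 9.38 and 9.45 in the polysomal and 10.88 and 11.12 in the monosomal pool of NMuMG cells with TGFβ (−1.58, SE 0.10, adjusted p = 2.47e-09), where its total RNA had risen with TGFβ. Plod1 was called lower in the polysomal pool in 3 conditions, by −1.38 in TGFβ-treated E1KD, −0.91 in untreated E1KD and −1.86 in TGFβ-treated NMuMG cells, and higher, by 0.88, in untreated NMuMG cells. The perlecan gene Hspg2 was lower in the polysomal pool of TGFβ-treated cells of both lines (−0.97 in E1KD and −0.96 in NMuMG cells, SE 0.16 each). In TGFβ-treated E1KD cells the further genes lower in the polysomal pool were Lama5 (−1.17), Col6a1 (−1.02), Loxl1 (−0.91), Col5a1 (−0.86), Fbln1 (−0.80), Col1a2 (−0.68), Col6a2 (−0.56) and P4ha2 (−0.51). In untreated E1KD cells they were Lama5 (−1.09), P4ha2 (−1.07), Bgn (−0.54) and Sparc (−0.40), and in TGFβ-treated NMuMG cells Fbln2 (−0.61). In TGFβ-treated E1KD cells the calls for Col1a2, Col6a2 and P4ha2 each ended with 2 of the 4 arrays left out. In untreated E1KD cells that for Bgn ended with 3 and that for Sparc with 2. With the mean of all kept probe sets of a gene in limma, Plod1 (−0.22, adjusted p = 0.318) was not called in untreated E1KD cells. Neither was Bgn (−0.177, adjusted p = 0.43). Fbln2 was not called in TGFβ-treated NMuMG cells when all 32 arrays shared the limma fit (adjusted p = 0.289). Nor was it called when the arrays of that comparison were fitted alone (adjusted p = 0.0676).

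Untreated NMuMG cells, whose monosomal arrays stood apart, showed a different order. The genes furthest below 0 there were Lamb1 (−2.58, SE 0.21, adjusted p = 2.94e-08), Thbs1 (−2.35, SE 0.31, adjusted p = 5.10e-06), Ltbp1 (−2.18, SE 0.15, adjusted p = 4.76e-09), Fbln2 (−2.16, SE 0.14, adjusted p = 3.98e-09), Plod2 (−1.73, SE 0.14, adjusted p = 2.39e-08), Lamb3 (−1.62, SE 0.14, adjusted p = 4.47e-08), Col4a2 (−1.29, SE 0.15, adjusted p = 1.71e-06) and Fn1 (−1.27, SE 0.11, adjusted p = 6.43e-08). Lamb1 was at 6.95 and 6.72 in the polysomal and 9.36 and 9.47 in the monosomal pool, and Fbln2 at 8.27 and 8.78 in the polysomal and 10.77 and 10.60 in the monosomal pool. Lamb3 was at 7.52 and 7.20 in the polysomal and 8.97 and 8.99 in the monosomal pool, and Fn1 at 8.57 and 8.38 in the polysomal and 9.74 and 9.76 in the monosomal pool. In none of these genes did the pools overlap. Col6a1, Nid1, Serpinh1, Col18a1, Col7a1, Lamc1, Sparc, P4ha2 and Col4a1 were also called lower in the polysomal pool, between −1.07 and −0.41. Lama5 (1.39, SE 0.15, adjusted p = 5.47e-07), Col1a2 (1.17, SE 0.23, adjusted p = 0.000263), Plod1 (0.88, SE 0.12, adjusted p = 1.11e-05), Fbln1 (0.81), Col6a2 (0.74), Col5a1 (0.66), Col12a1 (0.64), Lama3 (0.62) and Bgn (0.58) were higher there. For Col4a1, Col12a1 and Sparc another probe set of the same gene was called the other way in untreated NMuMG cells, and for Sparc also in untreated E1KD cells, so no direction is set for these genes there. With 1 of the 4 arrays left out, the calls for Col5a1 and P4ha2 in untreated NMuMG cells ended in 2 cases each. Those for Lamc1, Col12a1 and Bgn ended in 1 case each.

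**Figure D4:**
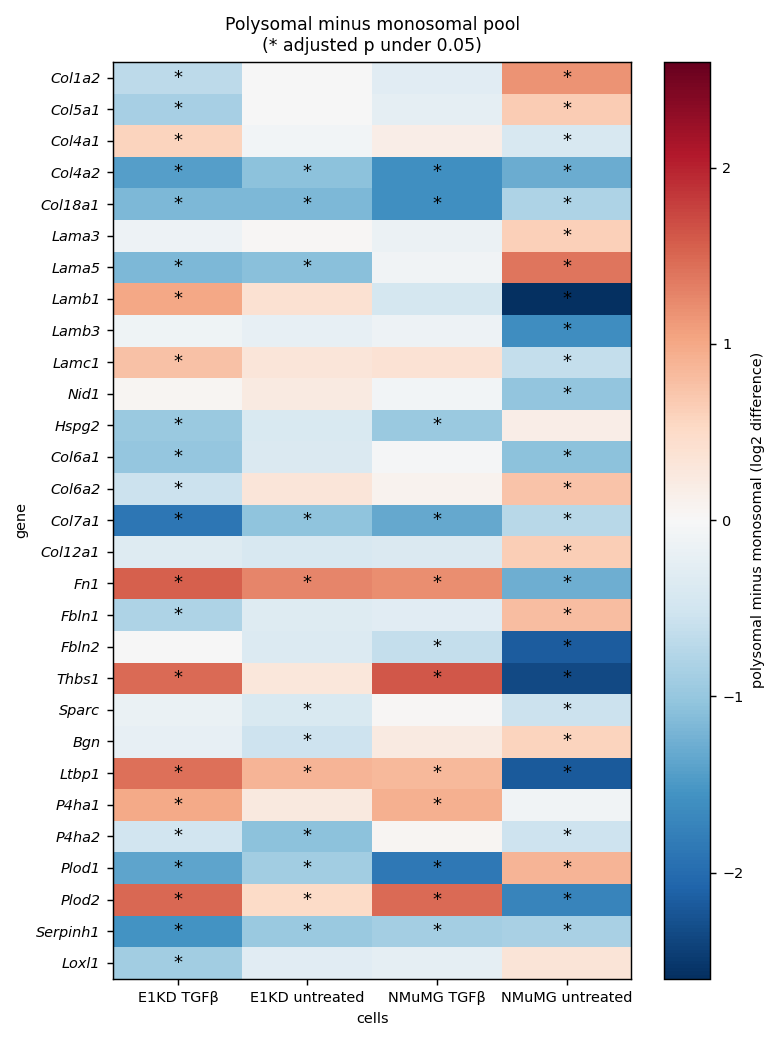
Polysomal minus monosomal log2 difference of the 29 tested matrix genes in TGFβ-treated and untreated E1KD cells and TGFβ-treated and untreated NMuMG cells. Red is higher in the polysomal pool, blue lower, and an asterisk marks an adjusted p under 0.05. The column of untreated NMuMG cells has its own pattern, with Fn1, Thbs1, Ltbp1 and Plod2 blue where the columns of TGFβ-treated cells are red.

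The polysome shift was defined as the gap between polysomal and monosomal signal in treated cells minus that gap in untreated cells. In NMuMG cells, 13 of the 29 genes shifted towards the polysomal pool after TGFβ and 12 away from it, where 40.1% and 30.3% of all probe sets did. In E1KD cells 3 genes shifted towards it and 4 away from it, where 20.9% and 7.73% of all probe sets did. The median shift was −0.04 for the 29 genes and 0.09 for all probe sets in NMuMG cells, and 0.0 and 0.08 in E1KD cells. The split in E1KD cells turned with the scaling: quantile normalization gave 1 towards and 9 away, and centring on Actb and Gapdh or on the array median 5 towards and 3 away. Among the genes that did not pass the filter, Col5a2 (−1.84, SE 0.26), Dcn (−1.22, SE 0.34), Col4a5 (−0.97, SE 0.35) and Col3a1 (−0.87, SE 0.25) were called away from the polysomal pool and Lox (0.95, SE 0.36) towards it in NMuMG cells, and Ltbp2 away from it in E1KD cells (−0.86, SE 0.23). The genes other than Lox were dim throughout, and low signals were offset between the pools of untreated NMuMG cells.

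The greatest shifts towards the polysomal pool in NMuMG cells were those of Thbs1 (3.97, SE 0.43, adjusted p = 7.50e-07), Plod2 (3.20, SE 0.20, adjusted p = 2.42e-09), Ltbp1 (3.02, SE 0.21, adjusted p = 7.83e-09), Fn1 (2.49, SE 0.16, adjusted p = 3.42e-09), Lamb1 (2.12, SE 0.30, adjusted p = 1.13e-05), Fbln2 (1.54, SE 0.21, adjusted p = 6.33e-06), Lamb3 (1.49, SE 0.19, adjusted p = 5.05e-06) and Col6a1 (1.03, SE 0.27, adjusted p = 0.00284). Thbs1 in TGFβ-treated NMuMG cells was at 8.59 and 8.54 in the polysomal and 6.50 and 7.39 in the monosomal pool. In untreated NMuMG cells it was at 6.17 and 5.41 in the polysomal and 8.10 and 8.18 in the monosomal pool. The order of the 2 pools was thus reversed, without overlap. Plod2 in TGFβ-treated cells was at 7.16 and 7.36 in the polysomal and 5.65 and 5.91 in the monosomal pool, against 6.22 and 6.13 in the polysomal and 7.96 and 7.84 in the monosomal pool of untreated cells. Its total RNA had fallen with TGFβ in these cells. Ltbp1 was at 7.62 and 8.07 in the polysomal and 6.77 and 7.22 in the monosomal pool of treated cells, and at 6.05 and 6.18 in the polysomal and 8.29 on both arrays of the monosomal pool of untreated cells. P4ha1 (1.02), Lamc1 (1.00), Nid1 (0.94), Sparc (0.59) and Col4a1 (0.58) followed.

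Away from the polysomal pool, Plod1 shifted furthest (−2.74, SE 0.17, adjusted p = 3.59e-09). It was at 7.29 and 7.43 in the polysomal and 9.08 and 9.35 in the monosomal pool of NMuMG cells with TGFβ, and at 8.71 and 8.49 in the polysomal and 7.73 and 7.71 in the monosomal pool of untreated cells, again a reversal of the pools. Plod1 hydroxylates lysines in the helical part of collagens, whereas Plod2 acts on their ends. Lama5 (−1.48, SE 0.21, adjusted p = 1.19e-05), Col1a2 (−1.46, SE 0.32, adjusted p = 0.000767), Hspg2 (−1.14, SE 0.23, adjusted p = 0.000351), Fbln1 (−1.10, SE 0.24, adjusted p = 0.000703), Col12a1 (−1.02, SE 0.26, adjusted p = 0.00262), Col5a1 (−0.90, SE 0.24, adjusted p = 0.00399) and Col18a1 (−0.78, SE 0.14, adjusted p = 0.000162) came next. Lama3 (−0.78), Col6a2 (−0.65), Col7a1 (−0.62) and Loxl1 (−0.57) followed. With 1 of the 8 arrays left out, the calls for the shifts of Col6a2 and Loxl1 ended in 4 cases each and that for Nid1 in 2. Another probe set was called in the opposite direction for Col4a1, Col12a1, Loxl1 and Sparc.

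Since these shifts rest on the untreated monosomal arrays, the TGFβ change of the polysomal pool alone was computed as well, a choice made after the data had been seen. Of the 29 members 13 were called, 7 higher and 6 lower, where 18.8% of all probe sets were higher and 11.3% lower. Thbs1 (2.78), Lamb3 (2.40), Ltbp1 (1.73), Fn1 (1.30), Plod2 (1.09), Fbln2 (0.97) and Col7a1 (0.79) were higher in the polysomal pool of TGFβ-treated than of untreated NMuMG cells, and Plod1 (−1.24), Lama5 (−1.08), Col1a2 (−0.78), Serpinh1 (−0.62), Lama3 (−0.38) and Sparc (−0.35) were lower. The direction of the shift was kept for 6 of the 8 genes with the greatest shifts towards the polysomal pool with a call, that of Lamb1 without one (0.57, adjusted p = 0.0532), and Col6a1 was at −0.045 (adjusted p = 0.89). Col7a1 and Sparc were called in the direction opposite to their shift. Plod2 alone among the 7 called higher had fallen in total RNA, whereas Thbs1, Lamb3, Ltbp1, Fn1, Fbln2 and Col7a1 had risen there. The polysomal pool alone is not corrected for the amount of transcript. For the genes that had risen it therefore cannot tell a shift between the pools from a rise in total RNA. In the polysomal pool of E1KD cells, TGFβ left 0 members called higher and 1, Fn1, lower (−0.56, SE 0.11, adjusted p = 0.0107), where 3.04% and 1.41% of all probe sets were.

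**Figure D5:**
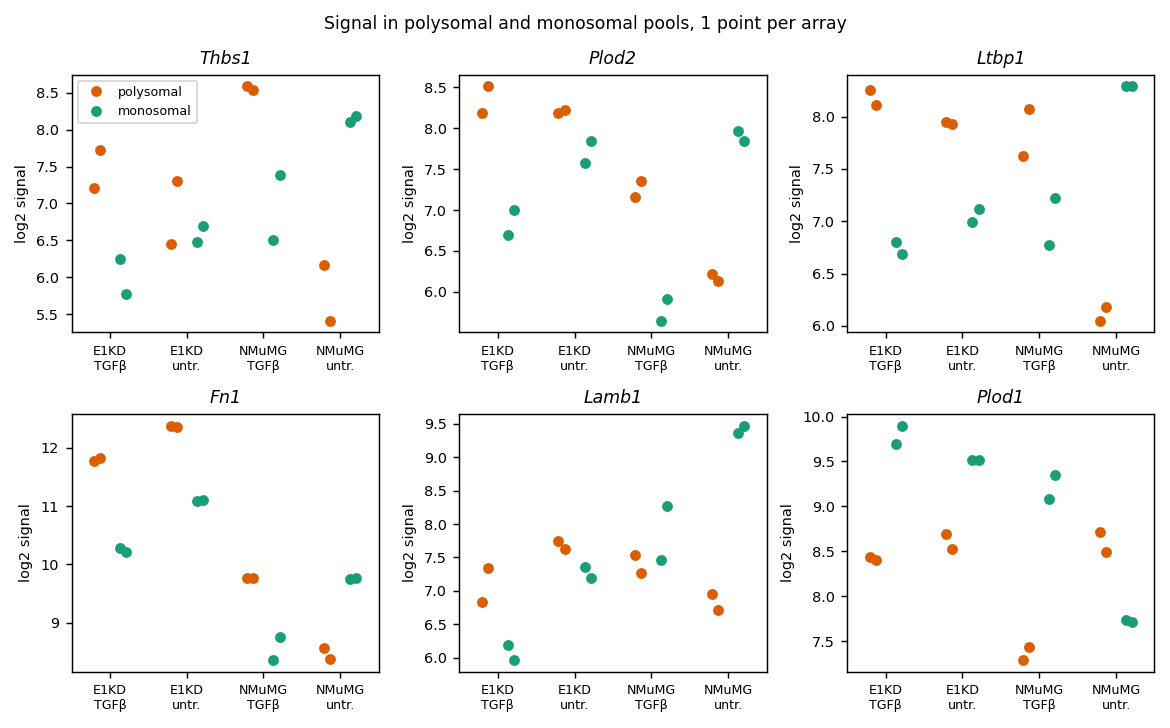
Log2 signal of 6 matrix genes in the polysomal (orange) and monosomal (green) pools, 1 point per array, in TGFβ-treated and untreated E1KD and NMuMG cells. In untreated NMuMG cells the monosomal points of Thbs1, Plod2, Ltbp1, Fn1 and Lamb1 lie above the polysomal points and those of Plod1 below; in TGFβ-treated NMuMG cells the order is reversed for all but Lamb1, whose pools overlap there.

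In E1KD cells the polysome shift was called for 7 members. Plod2 (1.00, SE 0.20, adjusted p = 0.00205), P4ha1 (0.72, SE 0.21, adjusted p = 0.0211) and Col4a1 (0.66, SE 0.16, adjusted p = 0.0075) shifted towards the polysomal pool. Col6a2 (−0.88, SE 0.27, adjusted p = 0.0258), Col5a1 (−0.85, SE 0.24, adjusted p = 0.0175), Col7a1 (−0.84, SE 0.19, adjusted p = 0.00477) and Serpinh1 (−0.58, SE 0.20, adjusted p = 0.0374) shifted away from it. With 1 of the 8 arrays left out, the call for Serpinh1 ended in 6 cases (adjusted p up to 0.134), that for Col6a2 in 5 (up to 0.112), that for P4ha1 in 4 (up to 0.101) and that for Col5a1 in 3 (up to 0.0888). The TGFβ changes of the polysomal pool alone passed the test for none of these 7, and had the opposite sign for P4ha1 (−0.37) and Col7a1 (0.43).

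The shifts differed between the lines for 13 genes, where 13.1% of all probe sets had a greater shift in E1KD than in NMuMG cells and 23.5% a smaller one. The difference of E1KD minus NMuMG was positive for Plod1 (2.27, SE 0.25, adjusted p = 1.03e-05), Lama5 (1.41, SE 0.29, adjusted p = 0.0018), Col12a1 (1.10, SE 0.37, adjusted p = 0.0287) and Col18a1 (0.78, SE 0.20, adjusted p = 0.00733). It was negative for Thbs1 (−2.79, SE 0.61, adjusted p = 0.00244), Ltbp1 (−2.48, SE 0.30, adjusted p = 2.34e-05), Fn1 (−2.21, SE 0.22, adjusted p = 5.60e-06), Plod2 (−2.21, SE 0.28, adjusted p = 3.10e-05), Col6a1 (−1.68, SE 0.38, adjusted p = 0.00301), Lamb1 (−1.52, SE 0.42, adjusted p = 0.0108), Lamb3 (−1.39, SE 0.27, adjusted p = 0.00115), Fbln2 (−1.20, SE 0.29, adjusted p = 0.00483) and Nid1 (−1.13, SE 0.42, adjusted p = 0.0455). Thbs1 in TGFβ-treated E1KD cells was at 7.21 and 7.73 in the polysomal and 6.24 and 5.77 in the monosomal pool, and in untreated E1KD cells at 6.45 and 7.30 in the polysomal and 6.48 and 6.70 in the monosomal pool, where the pools overlapped. In the polysomal pool alone, the difference of the TGFβ changes between the lines was called for 10 members, 3 positive and 7 negative (6.37% and 9.52% of all probe sets), with Lamb3 (−2.34), Thbs1 (−2.18), Fn1 (−1.86), Ltbp1 (−1.49), Lamb1 (−1.16), Plod2 (−0.94), Fbln2 (−0.86), Lama5 (1.43), Plod1 (1.05) and Col4a1 (0.55). Of the 13 genes, 9 were called in the same direction there, without correction for the amount of transcript. Among these 9, the TGFβ changes of total RNA also differed in that direction for Fn1, Fbln2 and Lamb3. Col12a1 (0.36), Col6a1 (−0.36) and Col18a1 (−0.14) were not, and neither was Nid1 (−0.64). With 1 of the 16 arrays left out the call for Nid1 ended in 10 cases and that for Col12a1 in 7. With the mean of the kept probe sets in limma, neither Col12a1 (0.215, adjusted p = 0.578) nor Col18a1 (0.482, adjusted p = 0.0725) was called. The call for Col18a1 also ended with centring on the array median (adjusted p = 0.0553) and with all 32 arrays in the fit (adjusted p = 0.185). Other probe sets were called for Col4a1 (1.30), Hspg2 (0.95), Serpinh1 (−1.03), Sparc (−1.30) and Loxl1 (−1.84), and of the genes below the filter Col5a2 was (1.81, SE 0.36).

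RNA immunoprecipitation asked which transcripts came down with hnRNP E1. Averaged over both treatments, with the arrays as titled, 1 of the 29 members was higher in the α-hnRNP E1 than in the IgG immunoprecipitates and 4 were lower, where 14% of all probe sets were higher and 11.7% lower. Col4a2 was at 5.84 to 6.42 on the 4 α-hnRNP E1 arrays and 5.43 to 5.64 on the 4 IgG arrays (0.56, SE 0.16, adjusted p = 0.0375). Of the 4 collagen hydroxylase genes 3 were on the other side, and Plod1 was not called (0.10, SE 0.16). P4ha1 was at 5.96 to 6.67 with α-hnRNP E1 and 7.13 to 7.50 with IgG (−0.93, SE 0.16, adjusted p = 0.00639), Plod2 at 7.09 to 7.61 with α-hnRNP E1 and 7.94 to 8.24 with IgG (−0.77, SE 0.14, adjusted p = 0.00776), and P4ha2 at 4.97 to 5.31 with α-hnRNP E1 and 5.53 to 6.02 with IgG (−0.58, SE 0.13, adjusted p = 0.0171). Sparc was at 8.65 to 9.05 with α-hnRNP E1 and 9.20 to 9.42 with IgG (−0.48, SE 0.10, adjusted p = 0.0148). None of the 5 overlapped between the antibodies, but they had been picked by their call. The differences do not depend on the conflict of labels but the spread within groups does: with the arrays grouped by number, 5 members were called higher and 7 lower, where 21.6% of all probe sets were higher and 20.5% lower. The call for Col4a2 ended in 6 of 8 cases with 1 array left out, those for Sparc in 4 and for P4ha2 in 3. With the mean of its kept probe sets in limma, Sparc was at −0.16 and not called (adjusted p = 0.191). With arrays centred on Actb and Gapdh 0 members were higher and 5 lower, with Col4a2 at 0.52 (adjusted p = 0.0505).

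With the arrays grouped as titled, no member was called between TGFβ-treated and untreated cells in the α-hnRNP E1 immunoprecipitates, where 0.0% of all probe sets were called in either direction and 1 member had an unadjusted p under 0.05. No member was called in the IgG immunoprecipitates either (0.00393% of all probe sets higher and 0.0% lower), with 3 members at an unadjusted p under 0.05. The 2 α-hnRNP E1 arrays under the same title differed widely. Fbln2 was at 6.73 and 8.71 on the arrays titled TGFβ and at 8.66 and 6.58 on those titled untreated, and Fn1 at 7.31 and 9.60 on the arrays titled TGFβ and at 9.34 and 7.56 on those titled untreated. When only the 4 IgG arrays were fitted, 7 members were called higher and 2 lower with TGFβ, where 2.91% of all probe sets were higher and 3.26% lower. Fbln2 was at 7.82 and 7.85 in the IgG immunoprecipitates of TGFβ-treated cells and 6.48 and 6.43 in those of untreated cells, and Fn1 at 9.29 and 9.34 with TGFβ and 8.18 and 8.02 without, so that RNA recovered with the control antibody followed the direction of total RNA for these 2 genes.

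With the α-hnRNP E1 arrays grouped by array number, with 14 as TGFβ-treated and 13 as untreated, 3 members were higher with TGFβ and 9 lower, where 6.09% of all probe sets were higher and 8.6% lower. Lower were Thbs1 (−2.22, SE 0.10, adjusted p = 4.89e-06), Fn1 (−2.04), Fbln2 (−2.03), Lamb3 (−1.23), Ltbp1 (−1.19), Lamb1 (−1.18), Col7a1 (−0.91), Col18a1 (−0.90) and Col4a2 (−0.54), and higher were Nid1 (0.98), Lamc1 (0.61) and Lama5 (0.44). In this grouping Thbs1 was at 6.20 and 6.26 in TGFβ-treated and at 8.46 and 8.44 in untreated cells, whereas the IgG arrays had 7.81 and 7.89 in TGFβ-treated and 6.69 and 6.88 in untreated cells. For Thbs1, Fn1, Fbln2, Lamb3, Ltbp1, Lamb1, Col7a1 and Col18a1 the α-hnRNP E1 arrays numbered 13, and not those numbered 14, thus lay on the side of the IgG arrays of TGFβ-treated cells. The labels do not settle which grouping holds, so no direction of the TGFβ change is given for the α-hnRNP E1 immunoprecipitates.

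A list of 66 further matrix genes was used as a setting, of which 63 had a probe set and 35 passed the filter. In total RNA of NMuMG cells 3 of the 35 were higher after TGFβ and 0 lower (3.0% and 2.43% of all probe sets). In E1KD cells 5 were higher and 5 lower (11.4% and 9.75%). In E1KD against NMuMG cells, 8 were higher and 4 lower without TGFβ (15.8% and 13.5% of all probe sets). With TGFβ 7 were higher and 5 lower (14.7% and 12.5%). Col4a4, a type IV collagen chain of specialised basement membranes, was higher in untreated E1KD than in untreated NMuMG cells by 4.30 (SE 0.26, adjusted p = 2.29e-09) and fell with TGFβ in E1KD cells by 2.94 (SE 0.26, adjusted p = 6.29e-07). The syndecan gene Sdc2 was higher in E1KD cells by 2.53 with and 3.29 without TGFβ. Bmp1, the protease that trims procollagens, had the greatest rise with TGFβ in NMuMG cells (0.78, SE 0.13, adjusted p = 0.00114). The polysome shift of these 35 genes in NMuMG cells was towards the polysomal pool for 5, led by Npnt (2.99, SE 0.50) and Dag1 (1.43, SE 0.15), and away from it for 18, led by the lysyl hydroxylase gene Plod3 (−1.73, SE 0.18) and Col11a2 (−1.68, SE 0.31). In E1KD cells it was called for 2 genes each way. In the immunoprecipitates, 2 of the 35 were higher with α-hnRNP E1 than with IgG and 6 were lower.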

How the data were processed

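Total, polysomal and monosomal RNA and immunoprecipitated RNA were hybridised to 1-colour arrays. The deposited values are log2 signals that the authors made with RMA (background correction, quantile normalization and probe summary) in Affymetrix Expression Console, rounded to 2 decimals. They also used MAS5 detection calls, which were not used here. Of 45101 probe sets, 25432 were kept, those above the median of all values (5.52) on at least 8 of 32 arrays. Probe sets were named from the platform annotation: 34958 had 1 gene symbol, 932 several and 9160 none. Differences were tested in limma 3.58.1 (R 4.3.3), with 1 fit of 24 arrays in 12 conditions and 1 of the 8 immunoprecipitation arrays, and the Benjamini-Hochberg adjustment ran over all kept probe sets of each comparison. The code was tested on simulated data. The number of arrays, 2 per condition, limits the precision. The study's methods compared means against fold limits without a test.

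The members and lists were chosen with earlier results of these data known. Every member was named in its role group, and per comparison the called members with the greatest differences, up to 8 each way. Replicate numbers were not used as a block, since the study's methods use none. Same-numbered arrays did not deviate together in every comparison. Alternatives changed the filter, the arrays in the fit, the scaling, the intensity trend, the probe sets of a gene, the block and the grouping of the immunoprecipitates, and left out each array. The polysomal pool alone, crossed numbers and the fit without the untreated NMuMG monosomal arrays were added after the data had been seen.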

Additional observations from a re-analysis of the deposited data

Results flagged for a closer look

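The following results were singled out because the TGFβ effect differed between E1KD and NMuMG cells by a limma test of the difference itself, E1KD minus NMuMG. In total RNA these were Plod2 (1.34), Col5a1 (1.075), Lamc1 (0.97), Col7a1 (0.735), Col4a1 (−0.595), Lamb3 (−0.785), Fn1 (−1.95) and Fbln2 (−1.975). For the polysome shift they were Plod1 (2.27), Lama5 (1.405), Col12a1 (1.1), Col18a1 (0.775), Nid1 (−1.13), Fbln2 (−1.195), Lamb3 (−1.39), Lamb1 (−1.515), Col6a1 (−1.68), Fn1 (−2.205), Plod2 (−2.205), Ltbp1 (−2.475) and Thbs1 (−2.79). The shifts use the untreated NMuMG monosomal arrays, which stood apart from the other fractionated samples, and their part in these differences was not tested beyond the values of the polysomal pool alone. The calls for the shifts of Col12a1 and Col18a1 ended with the mean of the kept probe sets of each gene. Plod2 had differences of opposite sign in the 2 readouts, positive in total RNA and negative in the shift.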

How the results depend on the processing

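Across 253 alternative counts of called members, 231 were within 1.5 times the count reported. With all 32 arrays in 1 fit the count was 6 for the TGFβ change in NMuMG cells, 2 for the difference of the TGFβ changes and 6 for the difference of the polysome shifts. With only the arrays of the comparison it was 15 for the difference of the TGFβ changes and 9 for the TGFβ change in the IgG immunoprecipitates. In the polysomal pool alone it was 13 for the shift in NMuMG cells and 1 for that in E1KD cells. Grouping the immunoprecipitates by array number gave 12 for α-hnRNP E1 against IgG and 12 for the TGFβ change with α-hnRNP E1. The cause was not tested.

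With 1 array left out, 8 to 9 members were called for the TGFβ change in NMuMG cells, 4 to 6 for the difference of the TGFβ changes, 4 to 7 for the polysome shift in E1KD cells and 2 to 6 for α-hnRNP E1 against IgG. Of 2507 alternatives of single genes, 2324 kept direction and call, 177 lost the call and 6 turned direction. Turned were Col12a1 between the pools of untreated NMuMG cells with the mean of its kept probe sets (−0.075), and, in the polysomal pool alone, Col6a1 (−0.045) and Col18a1 (0.165) in NMuMG cells, P4ha1 (−0.37) and Col7a1 (0.425) in E1KD cells and Col18a1 in the difference of the lines (−0.14). With the replicate number as a block, 12 members were called for the TGFβ change in NMuMG cells, 10 in E1KD cells, 17 and 16 between untreated and between TGFβ-treated lines, 9 for the difference of the TGFβ changes, and 25, 8 and 13 for the polysome shifts and their difference, so no count moved by over 1.5 times. Deviations of same-numbered arrays correlated between −0.592 and 0.29. Crossing the numbers left 26 calls between the pools of untreated NMuMG cells and 0 for the TGFβ change with α-hnRNP E1. Centring on Actb and Gapdh moved the median of all probe sets most between the pools of TGFβ-treated NMuMG cells (0.282, against 0.015 as reported), and centring on the array median moved it most for the polysome shift in NMuMG cells (0.325, against 0.09). Signals near the filter's limit, as for Col6a1 and P4ha2 in the immunoprecipitates, carry little above background.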
